A study of Rattus norvegicus with 6 samples.

Results

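Iron-sulfur cluster assembly genes are described here in rat skull bone defects that had been filled with 1 of 2 hydrogels, CGG-Cit or CGG. The 8 members, Nfs1, Iscu, Isca1, Isca2, Lyrm4, Hscb, Glrx5 and Nfu1, were taken by gene name from a deposited table of 34045 genes. The set was chosen by this route and by the measured FPKM of Nfs1, since 1 of its rows showed one of the largest rises in CGG-Cit, number 8 of 1169 rises among named protein-coding genes that passed the test without overlap of the groups. Its values are therefore given as a description, without a test. The 8 names matched 9 rows, because Nfs1 stands in the table as 2 genes. Each group holds 3 libraries of defect tissue taken 4 weeks after surgery from male wild type Sprague-Dawley rats, an outbred stock, with CGG-Cit hydrogel implantation in one group and CGG hydrogel implantation in the other. The labels spell out neither gel and give no age. They do not say that the libraries of a group came from separate rats, and each p-value therefore reflects library-to-library spread that may be no more than technical.

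Iron-sulfur clusters are small inorganic cofactors that carry electrons or hold substrates in enzymes of respiration, the tricarboxylic acid (TCA) cycle, haem synthesis and DNA repair. In mitochondria the desulfurase Nfs1, held by its small partner Lyrm4, takes sulfur from cysteine, and a ferredoxin helps to build the cluster on the scaffold Iscu. The chaperone Hspa9 with its partner Hscb passes the cluster to the monothiol glutaredoxin Glrx5, and the late factors Isca1, Isca2 and Nfu1 place clusters of the larger kind into target proteins. Red cell precursors draw heavily on this route, since their last haem enzyme, Fech, and their iron sensing depend on it.

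Gene expression was measured as FPKM, a fragment count divided by gene length in kilobases and by a scaling factor for each library. Whole fragments recovered from FPKM and gene length summed to 14744207 to 16127352 in the CGG-Cit libraries and to 15054925 to 16224920 in the CGG libraries. The scaling factor did not follow these sums. In CGG 2, with 16224920 fragments, 1 fragment in 1 kb was worth 0.0640 FPKM, against 0.0627 FPKM in CGG 1, with 15054925. How the factor was set was not settled here. Differences were tested with limma on log2(FPKM + 1), CGG-Cit minus CGG, over the 15965 genes that averaged 0.5 FPKM or more, with Benjamini-Hochberg adjustment over these genes and a threshold of 0.05. All 9 rows averaged 0.5 FPKM or more. CGG-Cit 3 stood nearest to CGG over all tested genes, with Pearson correlations across genes of log2(FPKM + 1) of 0.937 to 0.950 to the CGG libraries, against 0.908 to 0.919 for CGG-Cit 1 and CGG-Cit 2. The libraries also differed in cell type markers: summed over the list, the 8 measured erythroid markers gave 11387 to 24744 FPKM in CGG-Cit and 34814 to 43806 FPKM in CGG. The 7 neutrophil markers summed to 2101 to 5417 FPKM in CGG-Cit and 13360 to 14719 FPKM in CGG, and the 8 skeletal muscle markers to 33.5 to 313.2 FPKM in CGG-Cit and 6313 to 7128 FPKM in CGG. The 7 macrophage markers summed to 1061 to 1746 FPKM in CGG-Cit and 528.6 to 588.2 FPKM in CGG. The 5 fibroblast markers summed to 974.6 to 1083 FPKM in CGG-Cit and 415.0 to 717.5 FPKM in CGG, and the 4 meningeal markers to 159.2 to 1665 FPKM in CGG-Cit and 20.0 to 294.3 FPKM in CGG. With limma 5 of 5 fibroblast, 3 of 4 meningeal and 6 of 7 macrophage markers rose. Lower were 8 of 8 skeletal muscle, 7 of 8 erythroid, 6 of 6 tested neutrophil and 4 of 6 osteoblast markers. Of all tested genes 7.75% rose and 9.78% fell. No meningeal marker was called when CGG-Cit 2, CGG 1 or CGG 2 was left out. Osteoblast calls dropped to 0 without CGG-Cit 2, CGG 1, CGG 2 or CGG 3, and neutrophil calls to 0 without CGG 3. Erythroid calls dropped to 1 without CGG 3, and macrophage calls to 1 without CGG-Cit 2 or CGG 3. With any library left out, at least 3 fibroblast and 5 skeletal muscle markers were still called. The 6 osteoblast markers, which check the labelled bone tissue, were present in every library and summed to 4168 to 7111 FPKM in CGG-Cit and 8521 to 12552 FPKM in CGG. In such bulk tissue, fewer cells of a type and less RNA per cell cannot be told apart.

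Among the 7 members other than Nfs1, Glrx5 and Isca1 fell in CGG-Cit and 0 rose with limma. Of all tested genes 17.5% passed, 9.78% lower and 7.75% higher. At an unadjusted p under 0.05, 3 of the 7 were lower and 0 higher, and limma's voom on the recovered fragments also called 2 lower and 0 higher. The log2 difference was below 0 for 6 of the 7, with a median of -0.31, against a median of 0.002 over all tested genes. After rescaling to TPM the median of all genes moved to 0.16 and Isca2 changed to a difference above 0, while Glrx5 and Isca1 were still called lower. In TPM 948 of all tested genes were called lower and 2203 higher. The groups did not overlap for Glrx5, Isca1 and Iscu, all lower in CGG-Cit, and of all tested genes 22.1% were lower and 19.6% higher without overlap, 41.7% in all.

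**Figure D1:**
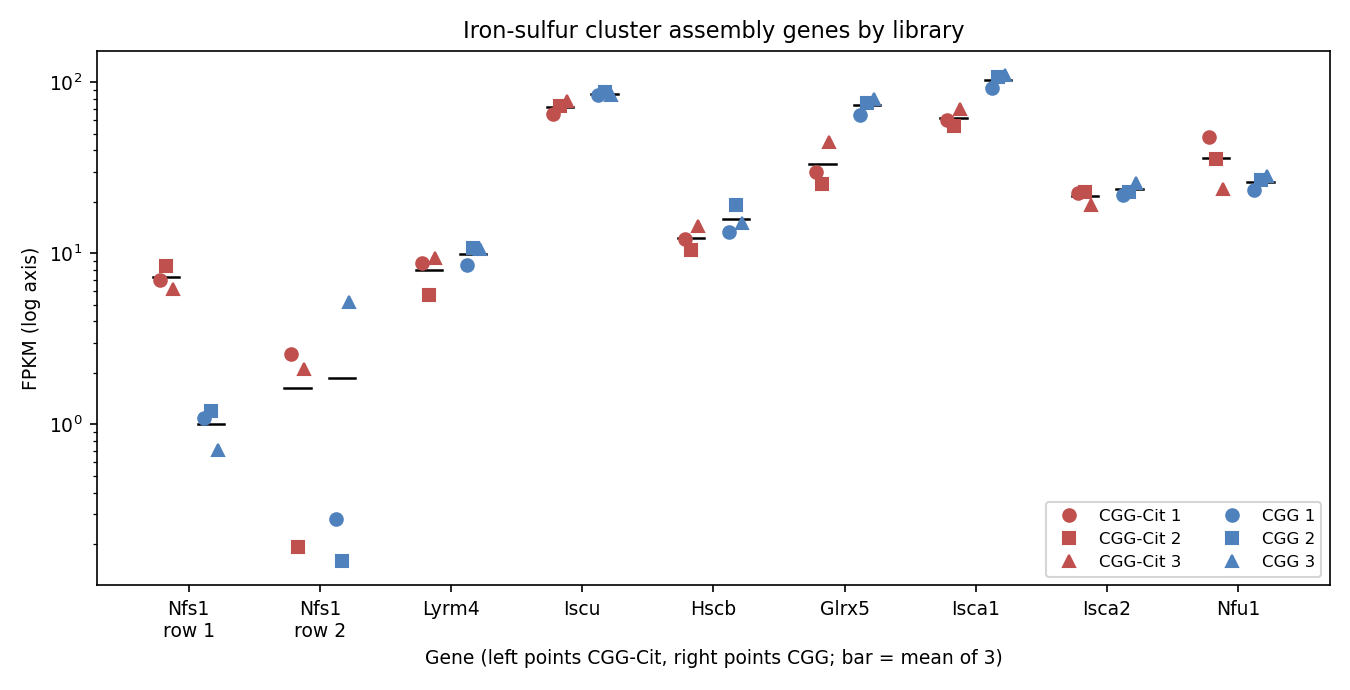
FPKM of each assembly gene in every library on a log axis, with CGG-Cit points left of CGG points, a bar at the mean of 3 libraries and the symbol giving the library number. Glrx5 and Isca1 lie lower in all CGG-Cit libraries, Nfs1 row 1 lies higher, and the second Nfs1 row spans 0.159 to 5.20 FPKM with the groups mixed.

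Nfs1 encodes the cysteine desulfurase that supplies the sulfur of every mitochondrial cluster. The table lists it as ENSRNOG00000019736 on chromosome 3 from 152200936 to 152222647 (row 1) and as ENSRNOG00000045686 on chromosome 3 from 151665814 to 151688149 (row 2), both on the minus strand and 512787 bases apart. The RefSeq gene table for the assembly GRCr8 holds 1 gene named Nfs1. Genes of chromosome 1 end at 282724300 in the deposited table, beyond 270492571 in GRCr8, so the build behind the deposited coordinates could not be settled and they are printed as the table gives them. The rows may be separate genes or 1 gene that the assembly behind the table holds in 2 copies, which was not tested, so the ratio for row 1 holds for that row alone. Row 1 held 7.02, 8.45 and 6.22 FPKM in CGG-Cit 1, 2 and 3, against 1.09, 1.21 and 0.714 FPKM in CGG 1, 2 and 3. Every CGG-Cit library was above every CGG library, and the means, 7.23 ± 1.13 FPKM in CGG-Cit and 1.003 ± 0.257 FPKM in CGG (SD, n = 3 each), stood 7.21-fold apart. These values rest on 148, 180 and 144 fragments in CGG-Cit and 24, 26 and 15 fragments in CGG.

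Row 2 of Nfs1 did not follow row 1. It held 2.57, 0.194 and 2.11 FPKM in CGG-Cit 1, 2 and 3, against 0.281, 0.159 and 5.20 FPKM in CGG 1, 2 and 3. CGG 3, the library lowest in row 1, was highest in row 2, and the groups overlapped. Of the fragments of both rows, row 1 took 65.2%, 96.8% and 67.0% in CGG-Cit 1, 2 and 3, against 72.7%, 83.9% and 8.62% in CGG 1, 2 and 3. Reads that fit 2 near-identical rows can be split between them or dropped in counting, and the counting rule is not given in the sources used here, so the level of either row is uncertain.

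Summed over both rows, Nfs1 held 9.59, 8.64 and 8.33 FPKM in CGG-Cit 1, 2 and 3, against 1.37, 1.36 and 5.92 FPKM in CGG 1, 2 and 3. The groups still did not overlap, but CGG 3 stood close to the CGG-Cit libraries and far above the other CGG libraries. The rows are 1380 (row 1) and 2008 (row 2) bases long, so a fragment of row 2 adds less FPKM. In fragments the sum was 227, 186 and 215 in CGG-Cit 1, 2 and 3, against 33, 31 and 174 in CGG 1, 2 and 3. By this count CGG 3 stood nearly level with CGG-Cit 2. The means were 8.85 ± 0.658 FPKM in CGG-Cit and 2.88 ± 2.63 FPKM in CGG (SD, n = 3 each), a ratio of 3.07. On the log2(FPKM + 1) scale the difference was 2.04 for row 1, 0.18 for row 2 and 1.54 for the sum. The sum without CGG 3 gave 2.06, and without CGG 1 or CGG 2 it gave 1.28. The sum was chosen after the data were seen.

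Neighbouring rows of Nfs1 were also listed in duplicate. Beside row 1 stands LOC100910882, annotated as RNA-binding protein 39-like, and beside row 2 stands Rbm39, an RNA-binding protein of splicing. LOC100910882 held 8.34, 3.47 and 7.11 FPKM in CGG-Cit 1, 2 and 3, against 0.602, 0.485 and 2.29 FPKM in CGG 1, 2 and 3. Rbm39 went the other way in level, with 10.8, 17.2 and 9.24 FPKM in CGG-Cit 1, 2 and 3, against 16.8, 33.9 and 20.0 FPKM in CGG 1, 2 and 3. As with Nfs1, the row beside row 1 did not overlap between the groups and was higher in CGG-Cit, and its partner overlapped. Their sum overlapped too, with 18.7 ± 2.21 FPKM in CGG-Cit and 24.7 ± 8.75 FPKM in CGG (SD, n = 3 each). Romo1, a small mitochondrial inner membrane protein whose row starts 79 bases from row 1 on the other strand, was listed at 0 in all 6 libraries, while LOC100910944, annotated as its like-named copy beside row 2, held 0.745 to 2.18 FPKM in CGG-Cit and 1.83 to 2.67 FPKM in CGG. Cpne1, a copine, was at 0 to 0.0188 FPKM near row 2, and LOC100910990, annotated copine-1-like and near row 1, held 2.003 to 16.9 FPKM in CGG-Cit and 11.0 to 11.7 FPKM in CGG. Rbm12, an RNA-binding protein near row 2, and the unnamed AABR07054397.1 near row 1 were listed at 0 in all libraries. A second LOC100910990 row, nearer to row 1, held 0.380 to 1.56 FPKM in CGG-Cit and 0.465 to 0.599 FPKM in CGG. No member row overlapped another gene in the table.

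**Figure D2:**
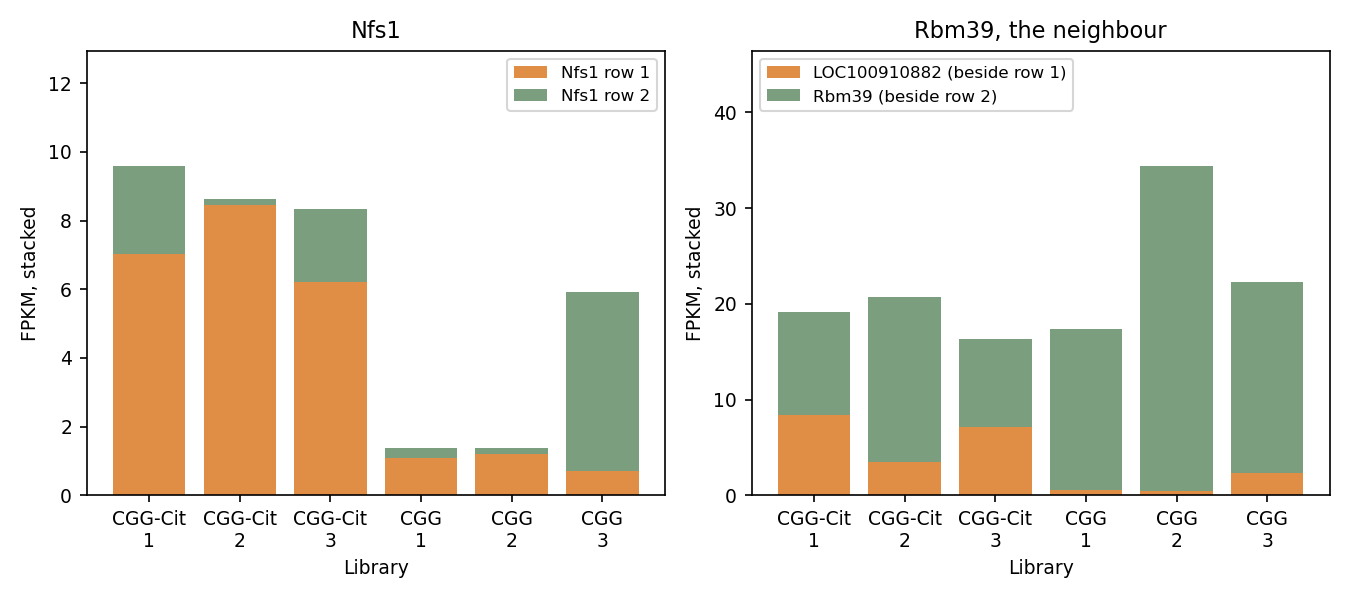
Stacked FPKM per library of the 2 rows named Nfs1 (left) and of Rbm39 with its like-named row LOC100910882 (right), CGG-Cit libraries left of CGG libraries. In both panels the orange row is higher in all CGG-Cit libraries, while the stacked height of CGG 3 reaches 5.92 FPKM for Nfs1 and the stacked Rbm39 heights overlap between groups.

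Lyrm4, which encodes the small LYR-motif protein that stabilises Nfs1, had no clear difference. It held 8.77, 5.71 and 9.33 FPKM in CGG-Cit 1, 2 and 3, against 8.58, 10.7 and 10.5 FPKM in CGG 1, 2 and 3. The groups overlapped, and the log2 difference was -0.31 ± 0.188 (SE), with a 95% interval of -0.76 to 0.14 and an adjusted p of 0.286 with limma. Lyrm4 lies on chromosome 17 from 29438980 to 29552790 (ENSRNOG00000047970).

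Iscu, the scaffold on which the first cluster is built (ENSRNOG00000000701, chromosome 12 from 48621454 to 48627297), was among the most abundant members and the steadiest in CGG. It held 64.7, 72.8 and 77.7 FPKM in CGG-Cit 1, 2 and 3, against 83.8, 87.2 and 84.0 FPKM in CGG 1, 2 and 3. All CGG-Cit libraries lay below all CGG libraries, but the gap was small. The log2 difference was -0.25 ± 0.094 (SE; 95% interval -0.47 to -0.022), with an adjusted p of 0.116 with limma. After rescaling to TPM it stood at -0.07.

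Hscb, the co-chaperone that brings loaded Iscu to the chaperone Hspa9 (ENSRNOG00000037508, chromosome 12 from 51878153 to 51888669), held 12.1, 10.4 and 14.4 FPKM in CGG-Cit 1, 2 and 3, against 13.3, 19.2 and 15.0 FPKM in CGG 1, 2 and 3. CGG-Cit 3 lay within the range of the CGG libraries. Its log2 difference was -0.33 ± 0.17 (SE; 95% interval -0.74 to 0.071; limma adjusted p = 0.21). Hspa9 itself had a log2 difference of 0.04 (limma adjusted p = 0.871).

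Glrx5 showed the largest fall of the members. It encodes the mitochondrial monothiol glutaredoxin that relays clusters, and loss of the gene in zebrafish stops haem synthesis in red cells. Glrx5 (ENSRNOG00000004206, chromosome 6 from 128750795 to 128760880) held 29.9, 25.4 and 44.9 FPKM in CGG-Cit 1, 2 and 3, against 64.7, 76.0 and 79.8 FPKM in CGG 1, 2 and 3. The highest CGG-Cit library lay below the lowest CGG library, and CGG-Cit 3 was the CGG-Cit library nearest to CGG. The means were 33.4 ± 10.2 FPKM in CGG-Cit and 73.5 ± 7.86 FPKM in CGG (SD, n = 3 each), 2.20-fold lower in CGG-Cit. On the log2 scale Glrx5 fell by 1.15 ± 0.209 (SE), with a limma adjusted p of 0.0197. The Glrx5 call was lost when CGG-Cit 1 (limma adjusted p = 0.0572), CGG-Cit 2 (0.0621), CGG 2 (0.0593) or CGG 3 (0.0749) was left out. The 8 erythroid markers, of which none was at 0 in a library, summed to 12964, 11387 and 24744 FPKM in CGG-Cit 1, 2 and 3, against 34814, 43806 and 42696 FPKM in CGG 1, 2 and 3. The neutrophil markers summed to 3064, 2101 and 5417 FPKM and the skeletal muscle markers to 72.0, 33.5 and 313.2 FPKM in CGG-Cit 1, 2 and 3. All 3 sums stood in the order of Glrx5 within CGG-Cit, with CGG-Cit 3 highest, as the library nearest to CGG over all tested genes. The osteoblast markers, also lower in CGG-Cit, summed to 4168, 6702 and 7111 FPKM in CGG-Cit 1, 2 and 3, another order. In CGG 1, 2 and 3 the neutrophil sum was 13360, 14719 and 13775 FPKM and the skeletal muscle sum 7128, 6313 and 6949 FPKM. None of the 3 sums had the order of Glrx5 within CGG, while the osteoblast sum, 8521, 10803 and 12552 FPKM, had it. Single erythroid markers differed there: Hba-a1, Ahsp, Alas2, Slc4a1 and Tspo2 had the order of Glrx5 within CGG. Hbb, Hbb-b1 and Klf1 did not. The part of these cells in the Glrx5 values was not tested.

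Isca1, an A-type late factor that acts with Isca2, was the other member that fell. Isca1 (ENSRNOG00000018343, chromosome 17 from 5281727 to 5294384) held 60.5, 55.1 and 69.3 FPKM in CGG-Cit 1, 2 and 3, against 92.2, 107.5 and 110.0 FPKM in CGG 1, 2 and 3. The groups were well apart, with means of 61.6 ± 7.16 FPKM in CGG-Cit and 103.2 ± 9.64 FPKM in CGG (SD, n = 3 each), 1.68-fold lower in CGG-Cit. It fell by 0.74 ± 0.119 on the log2 scale (SE; limma adjusted p = 0.016). The Isca1 call was lost when CGG-Cit 2 (limma adjusted p = 0.0583), CGG 2 (0.0515) or CGG 3 (0.0641) was left out. Within CGG-Cit, Isca1 had the order of the erythroid, neutrophil and skeletal muscle sums as well, but not that of the osteoblast sum. Within CGG it had the order of the osteoblast sum and of none of the other sums. It shared that order with the single erythroid markers Hba-a1, Ahsp, Alas2, Slc4a1 and Tspo2, but not with Hbb, Hbb-b1 and Klf1. The part of those cells was not tested.

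Isca2, its partner (ENSRNOG00000012085, chromosome 6 from 108488678 to 108490188), held 22.6, 22.7 and 19.1 FPKM in CGG-Cit 1, 2 and 3, against 22.0, 22.9 and 25.9 FPKM in CGG 1, 2 and 3. The groups overlapped, and the log2 difference was -0.13 ± 0.11 (SE), with a 95% interval of -0.39 to 0.13 and a limma adjusted p of 0.435. Isca1 was thus 2.42 to 3.62 times as abundant per length as Isca2 in CGG-Cit libraries and 4.19 to 4.69 times in CGG libraries.

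The promoters of Glrx5 and Isca1, the members that fell together, are shown as RefSeq gives them for GRCr8, from 250 bases before to 50 bases after the gene start, read 5′ to 3′ on the plus strand. Glrx5 lies at chr6:129752944-129753243 and Isca1 at chr17:4910566-4910865, and capitals mark every match to 5 motifs searched on both strands.
Glrx5: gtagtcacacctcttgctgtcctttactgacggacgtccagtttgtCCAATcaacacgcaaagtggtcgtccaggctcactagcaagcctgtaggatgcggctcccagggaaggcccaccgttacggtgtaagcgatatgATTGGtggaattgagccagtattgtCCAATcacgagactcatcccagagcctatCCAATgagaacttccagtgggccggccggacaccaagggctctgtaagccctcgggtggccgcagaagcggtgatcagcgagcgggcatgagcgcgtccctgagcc
Isca1: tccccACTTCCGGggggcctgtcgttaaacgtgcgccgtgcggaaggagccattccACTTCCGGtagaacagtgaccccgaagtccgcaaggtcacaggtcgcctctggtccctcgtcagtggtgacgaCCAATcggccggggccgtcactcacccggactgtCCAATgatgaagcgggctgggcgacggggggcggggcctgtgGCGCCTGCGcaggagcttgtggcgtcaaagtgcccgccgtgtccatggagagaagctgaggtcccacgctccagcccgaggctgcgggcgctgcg
The motifs were CCAAT (the box bound by NF-Y), CCGGAAGT (bound by ETS factors), GCGCNTGCG (nuclear respiratory factor 1), AGATAA (the core of a GATA factor site) and AAGATGGCG (YY1), and they were chosen with earlier results known. No match overlapped another in these 2 windows. Glrx5 held 4 CCAAT boxes and no match to the other motifs, and Isca1 held 2 CCAAT boxes, 2 ETS motifs and 1 motif of nuclear respiratory factor 1. Of 33469 rat promoters, 37.5% held a CCAAT box, 3.81% the ETS motif, 5.75% the motif of nuclear respiratory factor 1, 11.6% the GATA motif and 1.73% the YY1 motif. The windows of Iscu and Nfu1, which were not called, held 1 motif of nuclear respiratory factor 1 each, so 3 of 7 member promoters had one. CCAAT boxes were in 4 of the 7, with 3 each in Hscb and Isca2, which were not called. The G and C share was 57.7% in the Glrx5 window and 67.7% in the Isca1 window, the lowest and the highest of the 7 members, with 58.3% to 66.7% in the others, against a median of 51.7% over all promoters. The promoter table matched 7 members and not Nfs1.

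Nfu1, a late factor that delivers clusters to lipoyl synthase and complexes I and II, was the most uneven member in CGG-Cit apart from the second Nfs1 row. Nfu1 (ENSRNOG00000018410, chromosome 4 from 118814284 to 118834955) held 48.0, 35.6 and 23.9 FPKM in CGG-Cit 1, 2 and 3, against 23.6, 26.7 and 28.4 FPKM in CGG 1, 2 and 3. CGG-Cit 1 and CGG-Cit 2 lay above all CGG libraries, and CGG-Cit 3 lay within them. The log2 difference was 0.39 ± 0.239 (SE; 95% interval -0.18 to 0.96; limma adjusted p = 0.293), and without CGG-Cit 3 it was 0.64 (limma adjusted p = 0.0431). Summed macrophage markers were 1746, 1579 and 1061 FPKM and summed meningeal markers 1665, 432.1 and 159.2 FPKM in the same CGG-Cit libraries. Both sums had the order of Nfu1, but the fibroblast sum, also higher in CGG-Cit, ran the other way at 974.6, 1011 and 1083 FPKM. Ptgds, which was not called, made up most of the meningeal sum at 1540, 332.9 and 110.7 FPKM. Of the single macrophage and meningeal markers, Lgmn, Fcgr3a, Ptgds, Slc13a4 and Cldn11 had the order of Nfu1 within CGG-Cit. Cd68, Msr1, Csf1r, Adgre1, Mrc1 and Igfbp2 did not. Within CGG none of these sums had the order of Nfu1. The part of these cells in the Nfu1 values was not tested.

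Per length, Iscu, Isca1 and Glrx5 together made up 60.5%, 64.8% and 71.9% of the summed FPKM of the 9 member rows in CGG-Cit 1, 2 and 3, against 77.8%, 77.0% and 76.1% in CGG 1, 2 and 3. The summed level itself was 256.2, 236.4 and 266.9 FPKM in CGG-Cit and 309.5, 351.5 and 359.5 FPKM in CGG, without overlap. By mean FPKM the order in CGG-Cit was Iscu, Isca1, Nfu1, Glrx5, Isca2, Hscb, Lyrm4, Nfs1 row 1 and Nfs1 row 2. In CGG it was Isca1, Iscu, Glrx5, Nfu1, Isca2, Hscb, Lyrm4, Nfs1 row 2 and Nfs1 row 1. Among neighbours in the CGG-Cit order, Iscu and Isca1, Nfu1 and Glrx5, and Lyrm4 and Nfs1 row 1 overlapped across libraries. In the CGG order, Nfu1 and Isca2 overlapped, as did the 2 Nfs1 rows. Glrx5 stood at 0.349 to 0.578 of the Iscu level in CGG-Cit libraries and at 0.772 to 0.951 of it in CGG libraries.

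Other mitochondrial assembly factors fell in 3 of 15 cases and rose in 0 with limma (7 lower and 0 higher at an unadjusted p under 0.05; voom 3 and 0). Of all tested genes 9.78% fell and 7.75% rose in the main fit, and their share at the unadjusted p was not counted. The list median was -0.13 and, after rescaling to TPM, 0.04, with 2 genes still called lower. Slc25a37, mitoferrin 1, which carries iron into the mitochondria of red cell precursors, averaged 52.0 ± 12.4 FPKM in CGG-Cit and 109.4 ± 22.2 FPKM in CGG (SD, n = 3 each; log2 difference -1.07, limma adjusted p = 0.0223). Ndufab1, the acyl carrier protein that binds Lyrm4, fell by 0.67 on the log2 scale (limma adjusted p = 0.0288). Slc25a28, the mitoferrin used outside red cells, had a log2 difference of -0.04 (limma adjusted p = 0.886).

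Factors that build clusters in the cytosol did not pass in any of 11 cases with limma (voom also 0; without adjustment, 1 was lower and 0 higher at a p below 0.05). Over all tested genes 17.5% passed. The list median was 0.04. Ciao2a, a targeting factor of this route, averaged 42.0 ± 1.42 FPKM in CGG-Cit and 50.8 ± 4.77 FPKM in CGG (SD, n = 3 each; limma adjusted p = 0.103). Glrx3, the cytosolic glutaredoxin, averaged 48.6 ± 7.17 FPKM in CGG-Cit and 43.5 ± 3.16 FPKM in CGG (limma adjusted p = 0.444). Ndor1, the reductase of the route, averaged 8.13 ± 1.92 FPKM in CGG-Cit and 7.02 ± 0.536 FPKM in CGG (limma adjusted p = 0.497).

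**Figure D3:**
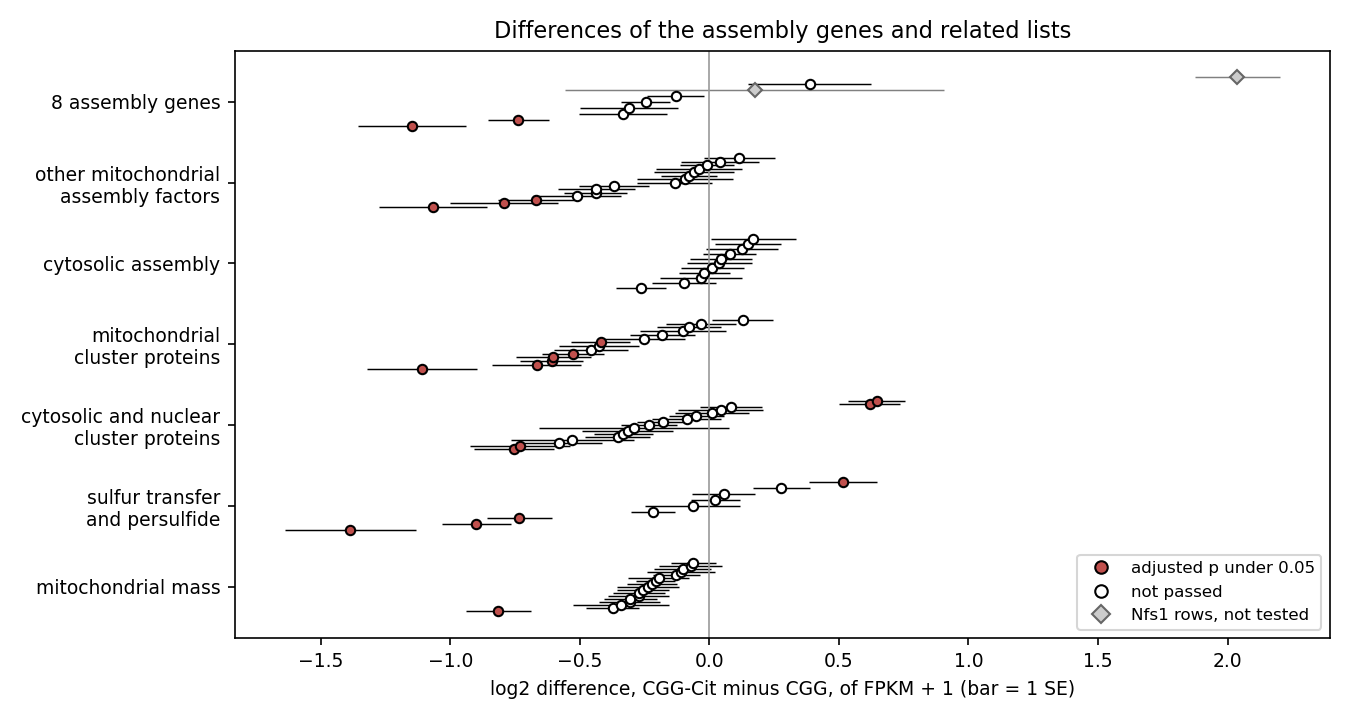
log2 differences (CGG-Cit minus CGG, of FPKM + 1) with 1 SE for the assembly genes and 6 related lists, with filled points for genes at an adjusted p under 0.05 and grey diamonds for the Nfs1 rows. Filled points lie below 0 in the lists of mitochondrial factors and proteins, the cytosolic assembly list has none, and the 3 above 0 are Xdh, Aco1 and Ctu2.

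Mitochondrial proteins that carry clusters fell in 6 of 14 cases and rose in 0 with limma (8 lower and 0 higher at an unadjusted p under 0.05; voom 6 and 0; list median -0.42). Fech, the ferrochelatase that completes haem, averaged 38.5 ± 12.2 FPKM in CGG-Cit and 81.8 ± 7.04 FPKM in CGG (SD, n = 3 each) and fell by 1.11 on the log2 scale (limma adjusted p = 0.0219). Uqcrfs1, the Rieske protein of complex III, fell by 0.61 (limma adjusted p = 0.0233). Ndufs1, Ndufv2 and Ndufs8, cluster subunits of complex I, also fell, by 0.60, 0.67 and 0.42 (limma adjusted p = 0.0368, 0.043 and 0.0478). In TPM, 3 of the 14 were called lower, and 948 of all tested genes. The shares of all tested genes in the main fit were 9.78% lower and 7.75% higher, and none was counted for the unadjusted p. Of 17 genes that mark mitochondrial mass 1 fell, the outer membrane channel Vdac1, by 0.82 (limma adjusted p = 0.0145), and 0 rose (voom also 1 and 0; 7 lower and 0 higher at an unadjusted p under 0.05). The log2 difference was below 0 for all 17, with a list median of -0.24. After rescaling to TPM 5 of the 17 lay above 0 and the median was -0.06. The others of that list named by p, Tfam, which packs mitochondrial DNA, and Phb, a prohibitin, had log2 differences of -0.37 and -0.31 (limma adjusted p = 0.0514 and 0.0874).

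Cytosolic and nuclear proteins that carry clusters had 2 of 17 tested members higher and 2 lower with limma. Of all tested genes 7.75% were higher and 9.78% lower. At an unadjusted p under 0.05, 2 of the 17 were higher and 5 lower, with no share of all tested genes counted at that p. The log2 difference was below 0 for 12 of the 17, with a list median of -0.23. Aco1, the cytosolic aconitase that becomes an iron-sensing RNA-binding protein when it loses its cluster, averaged 26.8 ± 4.06 FPKM in CGG-Cit and 16.99 ± 0.454 FPKM in CGG (SD, n = 3 each) and rose by 0.62 (limma adjusted p = 0.0219). Xdh, xanthine dehydrogenase, rose by 0.65 (limma adjusted p = 0.0181). Ppat, the first enzyme of purine synthesis, fell by 0.75 (limma adjusted p = 0.0248), and Pold1, the catalytic subunit of DNA polymerase delta, fell by 0.73 (limma adjusted p = 0.046). After rescaling to TPM the list had 2 higher and 0 lower.

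Genes of sulfur transfer and persulfide handling, which include users of Nfs1 sulfur, were 1 higher and 3 lower of 9 tested. Among all tested genes 7.75% were higher and 9.78% lower. Tst, the rhodanese that moves sulfane sulfur, averaged 3.58 ± 0.981 FPKM in CGG-Cit and 11.1 ± 3.33 FPKM in CGG (SD, n = 3 each; log2 difference -1.39, limma adjusted p = 0.0199). Mpst, a mercaptopyruvate sulfurtransferase, fell by 0.90 and Sqor, which oxidises sulfide, fell by 0.73 (limma adjusted p = 0.013 and 0.0176). Ctu2, a tRNA thiolation factor and the one member called higher, rose by 0.51 (limma adjusted p = 0.0409).

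Calls in the 6 related lists, 18 genes in all, thinned when libraries were left out. They numbered 1 without CGG-Cit 2, 1 without CGG 3, 4 without CGG-Cit 1, 5 without CGG 2, 13 without CGG 1 and 16 without CGG-Cit 3. The mitochondrial cluster proteins had 0 calls without CGG-Cit 1, CGG-Cit 2, CGG 2 or CGG 3, and 3 without CGG-Cit 3.

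Fech and Slc25a37 stood in the same order across the CGG-Cit libraries as Glrx5 and the erythroid, neutrophil and skeletal muscle sums. The osteoblast sum had another order there. Within CGG neither gene had the order of the erythroid, neutrophil or skeletal muscle sum. Of the single erythroid markers, Hba-a1, Ahsp, Alas2, Slc4a1 and Tspo2 had the order of Fech there. Klf1 had that of Slc25a37, as had Elane and Mpo of the neutrophil list and Tnni2 of the skeletal muscle list. Fech held 35.3, 28.2 and 51.9 FPKM in CGG-Cit 1, 2 and 3, against 77.7, 77.7 and 89.9 FPKM in CGG 1, 2 and 3. Slc25a37 held 49.7, 40.8 and 65.3 FPKM in CGG-Cit 1, 2 and 3, against 96.9, 96.1 and 135.0 FPKM in CGG 1, 2 and 3. CGG-Cit 3 was the CGG-Cit library nearest to CGG in both genes, as over all tested genes. The part of these cells in the Fech and Slc25a37 values was not tested.

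**Figure D4:**
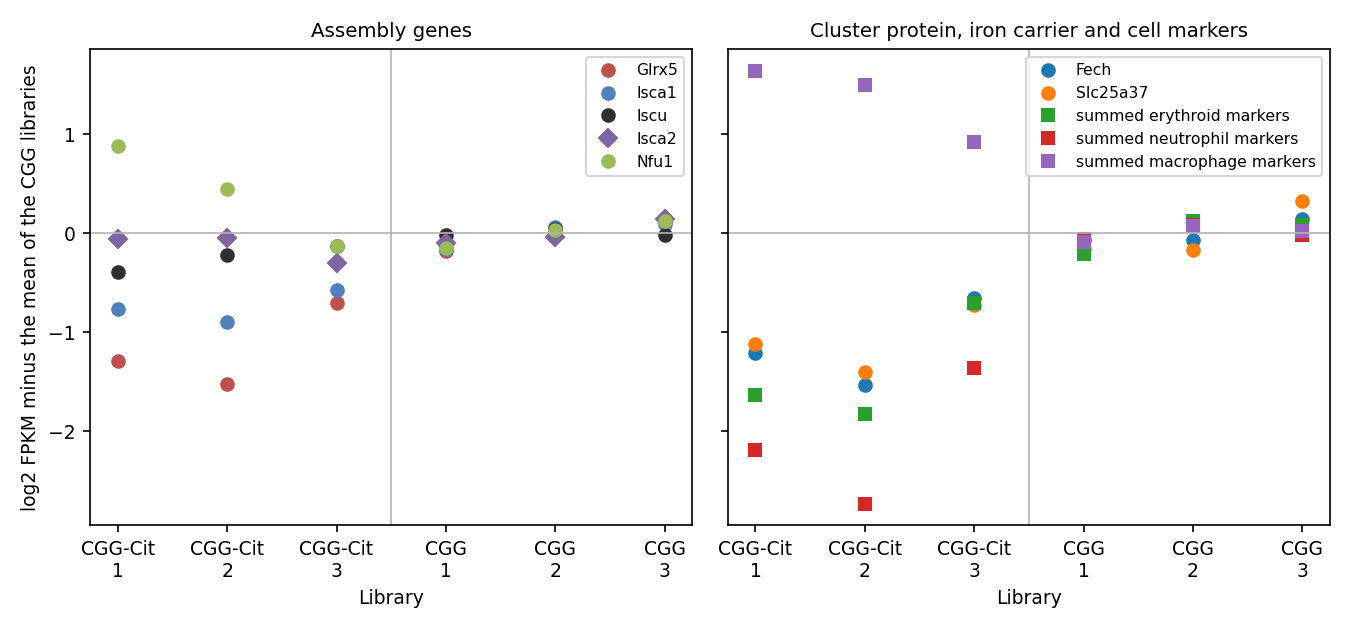
log2 FPKM of each library minus the mean of the CGG libraries, for 5 assembly genes (left) and for Fech, Slc25a37 and summed cell markers (right), CGG-Cit left of CGG. Glrx5 is lowest in CGG-Cit 2 (25.4 FPKM) and highest of its group in CGG-Cit 3 (44.9 FPKM), as are Fech and the erythroid sum, while Nfu1 and the macrophage sum are highest in CGG-Cit 1.

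The genes whose profile over the 6 libraries was nearest to Nfs1 row 1 were sought among 9611 named protein-coding genes averaging 5 FPKM or more, by root mean square distance of centred log2(FPKM + 1). They were Atp1b1, a subunit of the sodium pump, Rab7b, a small GTPase of endosomes and lysosomes, Rbp4, which carries retinol, the chemokine Ccl3 and the lectin receptor Clec4a3, at distances of 0.192 to 0.234. What these profiles share is the gap between the groups. Atp1b1 held 235.2, 260.7 and 190.2 FPKM in CGG-Cit 1, 2 and 3, against 63.7, 70.8 and 67.4 FPKM in CGG 1, 2 and 3.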

How the data were processed

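RNA from rat calvarial defects was sequenced in read pairs, per the labels' protocols. The authors deposited 1 table of FPKM values for 34045 genes with gene lengths; the build mRatBN7.2 is named, per the submitters' processing notes, beside the tools featureCounts 1.5.0-p3, HISAT2 2.0.5 and DESeq2 1.20.0. The sources used here do not give the annotation release, the strand setting or how multi-mapping reads were treated. Chromosome 1 genes in the table end at 282724300, beyond 270492571 in GRCr8, so coordinates are printed with no build named.

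FPKM times length gave whole multiples of 1 fragment in 100% of values above 0, within 0.01 fragments. Groups came from sample titles. The fit used R 4.3.3 and limma 3.58.1 (lmFit, eBayes with trend), a pseudocount of 1 FPKM and no block, was tested on simulated data, and tables used Python 3.11.15 and pandas 2.3.3. Of 87 symbols in the related lists 86 matched the table, 1 of them (Phb1) through a synonym. Named genes were the members, the neighbours of Nfs1, its 5 nearest profiles and the 3 members of each related list with the smallest p; Hspa9, Slc25a28, Ndufs1, Ndufv2, Ndufs8, Pold1, Ctu2 and LOC100910882 were chosen after their values were seen. Members and lists were chosen with earlier results of these data known. Alternatives were other pseudocounts, filters, scalings, variance settings, thresholds, a replicate block, voom and each library left out. DNA sequence came from RefSeq. Of the genes this rule names, 2 are not reported here.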

Additional observations from a re-analysis of the deposited data

How the results depend on the processing

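Glrx5 and Isca1 were the called members in every alternative that kept all 6 libraries at the threshold of 0.05 or 0.1; at 0.01 the count was 0. Leaving out 1 library gave 0 to 3 called members. Over the whole table, where 2798 genes passed, leaving out 1 library gave 312 to 2934, a threshold of 0.1 gave 4496 and of 0.01 gave 235. The related lists, with 18 calls, gave 1 to 16 without 1 library and 0 at a threshold of 0.01. With the replicate number as a block, 1667 genes passed over the whole table, 9 in the related lists and 2 members. Same-numbered libraries did not deviate together (correlations of -0.096, 0.0016 and -0.078 for numbers 1, 2 and 3). With 3 libraries per group this cannot exclude a pairing, and the labels give the numbers no meaning. After rescaling to TPM 2203 genes were higher and 948 lower, against 1237 and 1561. The log2 difference of Nfs1 row 1 was 2.75 and 2.37 with pseudocounts of 0.1 and 0.5 FPKM, 2.45 in TPM and 2.83 with voom, and 1 fragment in 1 kb was worth 0.0596 to 0.0657 FPKM.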

Other observations

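Nfs1 was not the one name listed more than once. Of named protein-coding genes 101 had several rows in the table, and 22 had several rows at or over 0.5 FPKM. Among these 22 names, 10 had rows with differences of opposite sign, 3 had a row that passed, and 0 had a called rise together with a called fall (limma at an adjusted p under 0.05).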
